A study of Bos taurus with 18 samples.

Results

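The comparison described here is that of high-grain with forage feeding in the cows that received a supplement labelled PHY. It holds 8 of the 18 small RNA libraries of the series, chosen by sample title: 4 of the group FD_PHY (forage) and 4 of the group HG_PHY (grain). The tissue is papillae of the rumen, the forestomach of cattle in which feed is fermented by microbes, taken as biopsies through a rumen cannula from Holstein cows that were not in milk. On FD the ration was 100% forage and on HG it held 65% concentrate. The study has 9 cows, 4 of them in the PHY arm and 5 in the control arm (CON), and every cow was sampled on forage before it was moved to grain, so that diet and time cannot be told apart. The 2 groups compared therefore come from the same 4 cows and share the PHY label. The sources used here do not say what PHY stands for, nor whether it was already fed at the time of the forage biopsies. The 5 FD_CON and 5 HG_CON libraries, from cows without the supplement, served for the comparison of arms.

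MicroRNAs (miRNAs) are RNAs of about the length of a short primer that are cut from hairpin precursors and guide Argonaute proteins to messenger RNAs, which are then translated less or degraded. Each hairpin can give a 5p and a 3p strand, and hairpins that lie close together are often transcribed as 1 unit. The papilla is a leaf-like fold with a stratified, keratinized epithelium over a core of connective tissue, vessels and scattered leukocytes, and its epithelium absorbs and metabolizes the short-chain fatty acids of fermentation. A move to grain raises the production of those acids and is known to remodel the papillae. Because many miRNAs are typical of 1 cell type, their levels in a biopsy follow both its cell make-up and the state of its cells.

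The 8 libraries held 6.001 to 13.303 M reads (M, 1000000) after names of the same miRNA were merged, and 539 to 585 miRNAs were seen per library. A read that fits several miRNAs still counts under each, so these totals and the shares below hold some reads more than once. Levels are given as CPM, counts per M reads after scaling by TMM, a method that sets the bulk of miRNAs level between libraries, and log2 changes are grain over forage with their SE. Within a group the log2 CPM of each of the 8 libraries had a median correlation across miRNAs with those of its group of 0.9796 (HG_PHY 1) to 0.9853 (FD_PHY 2). miR-21-5p was the most abundant miRNA, with 23.9% ± 1.36 of the reads on forage and 23.9% ± 1.96 on grain (SD, n = 4 each). It was followed by miR-143, miR-24-3p (6.14% and 6.68%), miR-27b (4.22% and 4.75%), miR-26a (4.45% and 4.51%), let-7a-5p (3.93% and 4.36%), let-7f (3.16% and 3.60%), miR-205 (2.73% and 2.82%), let-7g (2.05% and 2.44%) and miR-27a-3p (1.99% and 2.47%). The 10 together took 66.7% ± 0.51 of the reads on forage and 66.2% ± 1.75 on grain (SD, n = 4 each). miR-205, which marks stratified epithelia, lay at 24701 to 29489.8 CPM and miR-200a, which marks epithelial cells, at 7288 to 11907 CPM, whereas miR-192, typical of columnar gut epithelium, lay at 232 to 284 CPM.

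The comparison asked which miRNAs of the papillae differed between forage and grain in cows of the PHY arm. At a Benjamini-Hochberg adjusted p under 0.05 by edgeR, 0 of 468 miRNAs (0%) passed, with 33 at an unadjusted p under 0.05 (7.05%). miR-320a and hsa-miR-93-5p were higher on grain, miR-146a and miR-181a, both known from immune cells, were lower, and these 4 were among the 27 miRNAs whose forage and grain libraries did not overlap (5.77%). The lower side also held miRNAs typical of leukocytes (miR-142-5p, miR-342) and of smooth muscle (miR-143). Leukocyte miRNAs did not all lie on that side. Of 5 myeloid miRNAs 3 were above 0 and 2 below, among them miR-223 at a log2 change of 0.60 ± 0.30 with overlapping groups. On the higher side were miR-450b and miR-450a, of a cluster on the X chromosome. Names with hsa are human entries of the authors' reference, and all others are bovine.

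Of 824 miRNAs, 468 passed a filter on low counts and entered edgeR's quasi-likelihood test in a model of all 4 groups. Of the 33 at an unadjusted p under 0.05, 17 were higher on grain (3.63% of all tested) and 16 lower (3.42%). DESeq2 and limma-trend on the deposited table also called 0, while limma-voom with quality weights called 1, miR-320a (adjusted p = 0.0223). The 33 fell to 18 without FD_PHY 2, to 20 without FD_PHY 3 and to 19 without HG_PHY 2. Of the 27 miRNAs without overlap, 14 had all grain libraries above all forage libraries (2.99%) and 13 had all below (2.78%). The median log2 change over all 468 was 0.01. Precision followed level: the median SE of the log2 change was 0.16 for the 74 miRNAs at 1000 CPM or more and 0.58 for the 191 under 10 CPM. The largest log2 change in size at 1000 CPM or more was that of miR-146a, -0.75. The 8 libraries come from 4 cows, but the labels do not say which cow a replicate number stands for, so no term for the cow was used and the p-values treat the libraries as independent.

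**Figure D1:**
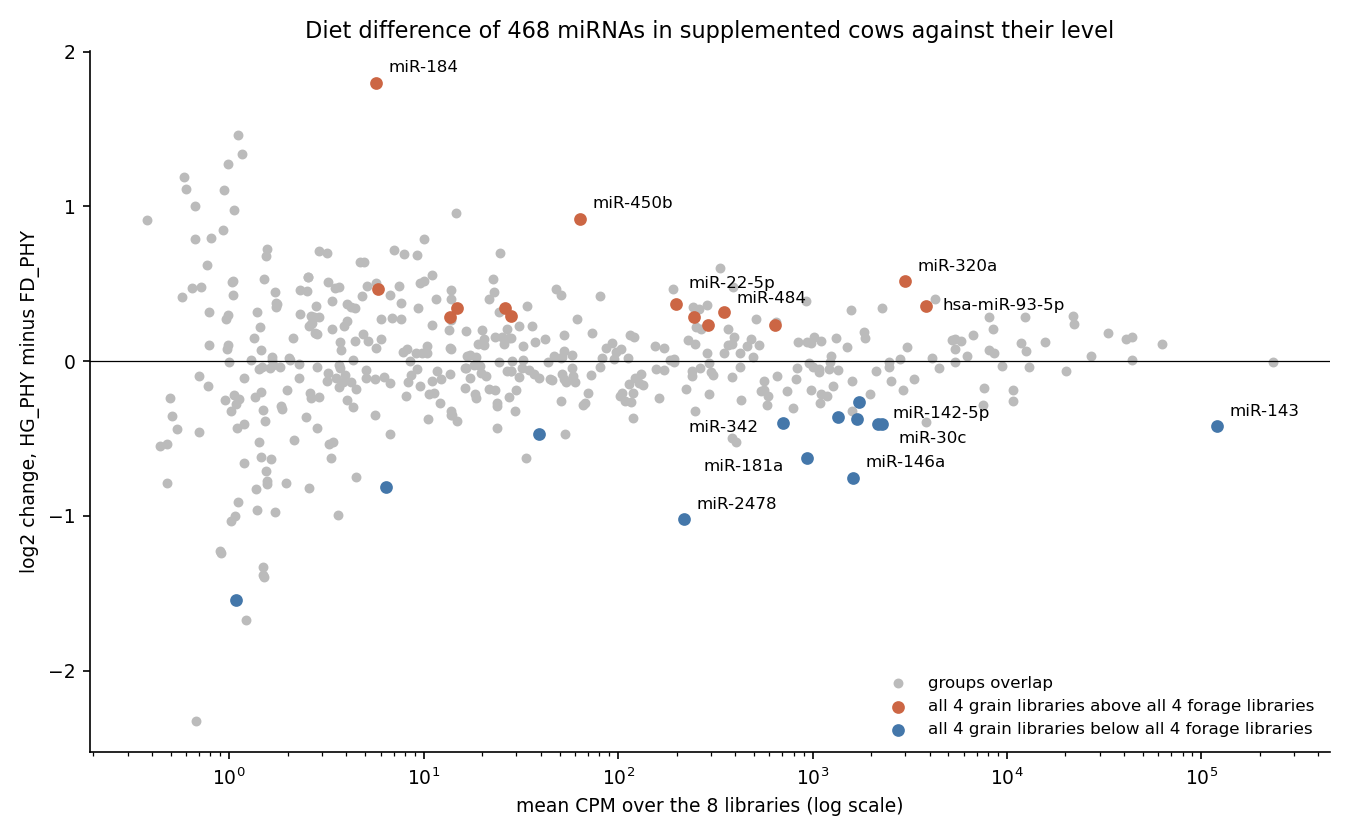
Log2 change from FD_PHY to HG_PHY of the 468 tested miRNAs (vertical axis) against their mean level in CPM over the 8 libraries (horizontal axis, log scale), 1 point per miRNA. Orange and blue points are the 14 and 13 miRNAs whose grain libraries lie wholly above or below the forage libraries, and the scatter widens under 10 CPM.

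miR-320a and miR-484 are hairpins known to be made without the Drosha enzyme that cuts most precursors. miR-320a (chromosomes 8 and 20) stood at 2233, 2343, 2252 and 3041 CPM in FD_PHY 1 to 4 and at 3448, 3848, 3181 and 3626 CPM in HG_PHY 1 to 4. All grain libraries lay above all forage libraries, and FD_PHY 4 was the forage library nearest to them. Its log2 change was 0.51 ± 0.13 (SE), or 1.43-fold, with an adjusted p of 0.264 by edgeR, and it ran from 0.44 to 0.62 with 1 library left out. A read of miR-320a fits both loci and a human entry, so the 2 loci cannot be told apart. miR-484 (chromosome 25) was lower in level but of the same pattern, with 324, 314, 292 and 319 CPM on forage against 417, 427, 331 and 382 CPM on grain. HG_PHY 3 was its lowest grain library and still above the highest forage library (log2 change 0.32 ± 0.13, adjusted p = 0.647 by edgeR).

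hsa-miR-93-5p, whose cluster on chromosome 25 lies in an intron of a gene for DNA replication and is known to curb inhibitors of the cell cycle, was at 3452, 3369, 3118 and 3550.3 CPM in the forage libraries and 3662, 4631, 4530.5 and 4476 CPM in the grain libraries. The groups did not overlap, although HG_PHY 1 lay close to the forage range (log2 change 0.36 ± 0.11, adjusted p = 0.379 by edgeR). Its cluster partners miR-106b (0.19 ± 0.12) and miR-25 (0.17 ± 0.13) had smaller changes and overlapping groups, and the scarce hsa-miR-25-5p had -0.18. Across the miR-17-92, miR-106a-363 and miR-106b-25 clusters together, 10 of 18 tested members were above 0 and 8 below, with a median of 0.04 against 0.01 for all miRNAs. That median was -0.02 without FD_PHY 3 and -0.03 without HG_PHY 4. hsa-miR-93-5p was the only member of these clusters with an unadjusted p under 0.05, while miR-19b (-0.23 ± 0.14) and hsa-miR-20a-3p (-0.35 ± 0.24) had the lowest values of p among those below 0.

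A cluster of hairpins on the X chromosome, held several of the larger differences on the higher side. miR-450b was at 48.6, 51.9, 23.9 and 51.5 CPM on forage against 66.7, 123, 71.9 and 71.7 CPM on grain. The groups did not overlap, FD_PHY 3 was far below the other forage libraries and HG_PHY 2 far above the other grain libraries (log2 change 0.92 ± 0.33, adjusted p = 0.647 by edgeR). Without 1 library its change ran from 0.64 to 1.01. miR-450a had 22.7, 22.1, 9.34 and 21.3 CPM and 20.0, 34.9, 35.96 and 31.5 CPM, so that HG_PHY 1 fell within the forage range (0.70 ± 0.33). The neighbours miR-503-5p (0.69 ± 0.45) and miR-424-5p (0.43 ± 0.28), which repress cyclins and other cell-cycle genes, were also above 0, and the second strand miR-424-3p, at a mean of 3.17 CPM, was at -0.13. Of the 5 tested members, 4 were thus higher on grain and 2 had an unadjusted p under 0.05 by edgeR. Those 2, miR-450b and miR-450a, are the ones through which the cluster was picked. Their share therefore cannot be set against the 7.05% of all miRNAs. These members lie within 6609 bases in the deposited positions, and the number of transcripts behind them was not measured.

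Among the other higher miRNAs, miR-22-5p (chromosome 19), the minor strand of its hairpin, was at 168, 172, 162 and 195 CPM on forage against 213, 220.0, 219 and 247 CPM on grain. Its groups did not overlap and each spanned a narrow range (log2 change 0.37 ± 0.15). The major strand miR-22-3p was at 0.03 ± 0.19, and whether the strands differ was not tested. miR-98 (0.35 ± 0.14) and let-7g (0.24 ± 0.12), both of the let-7 family that restrains growth genes, were above the forage mean in all 4 and 3 of 4 grain libraries. miR-331-5p (0.46 ± 0.18), the ruminant miRNAs miR-2284w (0.40 ± 0.19) and miR-2284y (0.34 ± 0.16), and the scarce miR-671 (0.79 ± 0.33) and miR-129-5p (0.96 ± 0.42) completed the 12 largest differences on the higher side with an unadjusted p under 0.05 and at least 10 CPM. Over these 12 miRNAs the groups did not overlap for 6, and in 11 all grain libraries exceeded the forage mean. miR-27a-3p (0.29 ± 0.13), abundant and linked to lipid metabolism, and miR-128 (0.27 ± 0.13) also had an unadjusted p under 0.05.

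**Figure D2:**
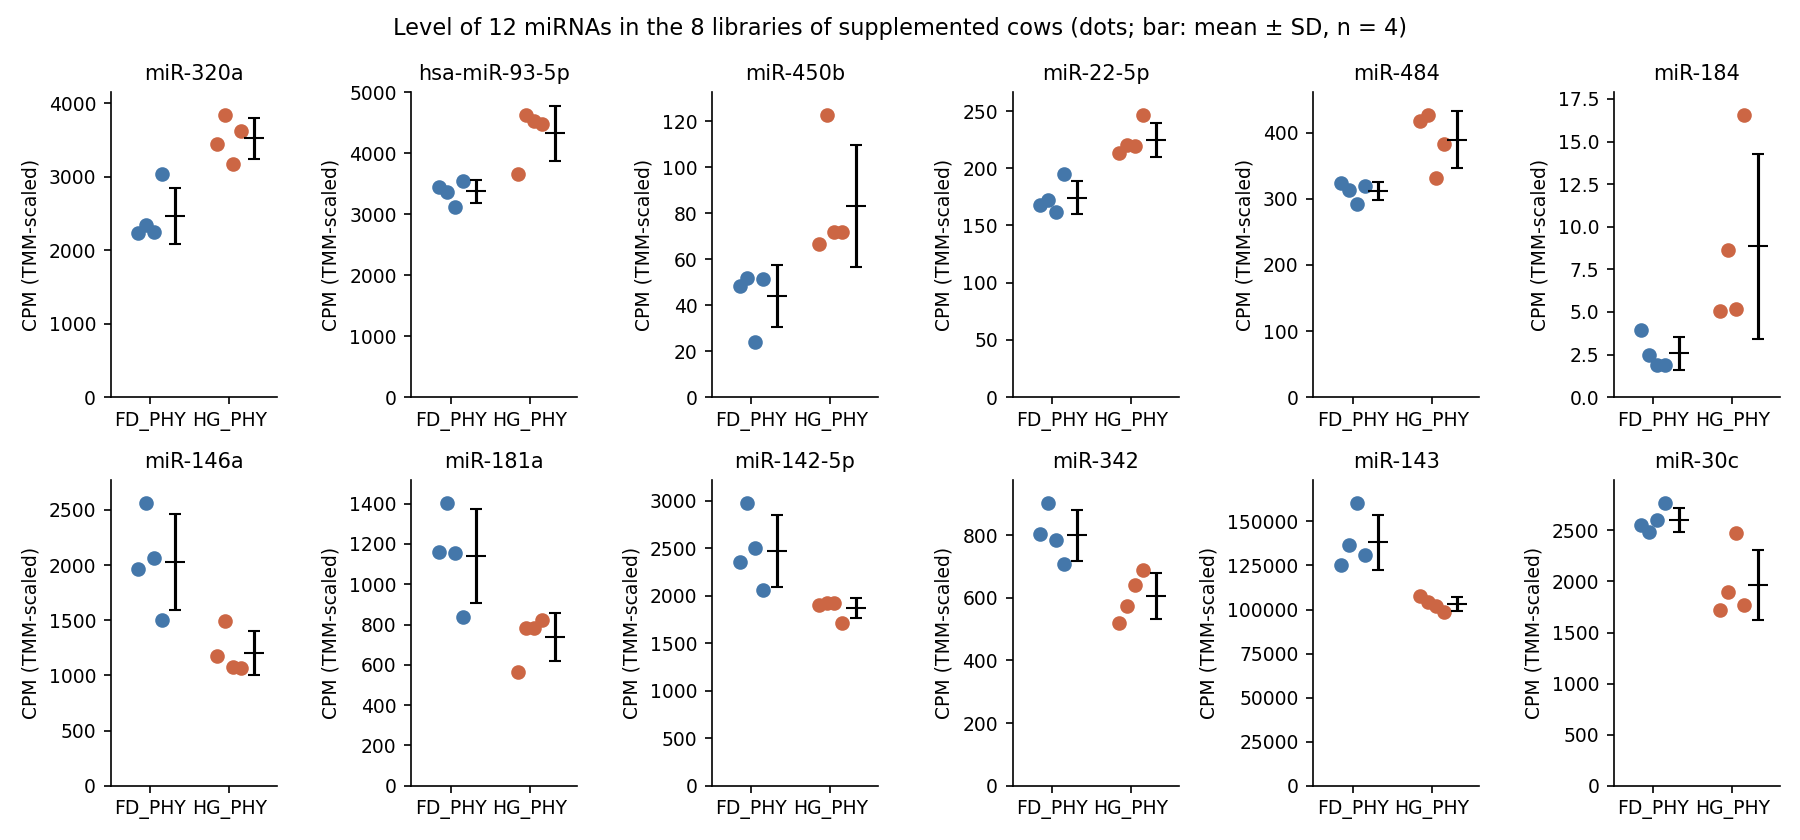
Level in CPM of 12 miRNAs in the FD_PHY (blue) and HG_PHY (orange) libraries, 1 dot per library in the order of replicate numbers 1 to 4, with the mean ± SD beside them; each vertical axis starts at 0. In the upper row the grain libraries lie above the forage libraries and in the lower row below. miR-484, miR-146a, miR-181a, miR-342 and miR-30c come close to overlap.

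On the lower side, the lowest p belonged to miR-146a (chromosome 7), which restrains NF-kappaB signalling by repressing adaptor proteins of Toll-like receptors. It stood at 1969, 2562, 2068 and 1507 CPM in FD_PHY 1 to 4 and at 1177, 1493, 1077 and 1066 CPM in HG_PHY 1 to 4. All grain libraries were below all forage libraries, but HG_PHY 2 came close to FD_PHY 4. The log2 change was -0.75 ± 0.20 (SE), or 0.59 times the forage level, with an adjusted p of 0.264 by edgeR, and leaving out 1 library gave -0.91 to -0.63. Its paralog miR-146b, which shares most of its targets, was at 0.05 ± 0.20.

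miR-181a, which tunes the signal of the T cell receptor, was at 1163, 1403, 1155 and 836 CPM on forage against 563, 785, 782 and 823 CPM on grain. HG_PHY 1 was the lowest library, and the highest grain library lay just under FD_PHY 4 (log2 change -0.63 ± 0.19, adjusted p = 0.375 by edgeR). miR-181c, from another hairpin on chromosome 7, had 40.1, 51.9, 43.5 and 27.8 CPM and 21.7, 26.1, 28.5 and 29.6 CPM, so that FD_PHY 4 fell among the grain libraries (-0.62 ± 0.19). All 4 tested members of the miR-181 family were below 0, with a median of -0.37, yet miR-181b (-0.11 ± 0.15), which neighbours 1 of the 2 loci of miR-181a (chromosomes 11 and 16) on chromosome 11, and miR-181d (-0.06 ± 0.26), which neighbours miR-181c, had small values. The sign of miR-181d was not stable when 1 library was left out.

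Both strands of the miR-142 hairpin, which is expressed in blood cells of all lines, were lower on grain. miR-142-5p was at 2357, 2976, 2502.2 and 2065 CPM on forage against 1908, 1925, 1926 and 1709 CPM on grain, without overlap (-0.41 ± 0.16, adjusted p = 0.647 by edgeR). miR-142-3p was at 469, 640.3, 434 and 357 CPM and 385, 363, 339 and 236 CPM, where FD_PHY 4 was below 2 grain libraries (-0.52 ± 0.20). miR-342, a further leukocyte miRNA, was at 804, 902, 783 and 706 CPM and 519.6, 572, 641 and 688 CPM, with no overlap (-0.40 ± 0.14, adjusted p = 0.647 by edgeR).

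Of the 9 tested lymphoid and pan-leukocyte miRNAs, 8 were below 0 on grain and 1 above, with a median of -0.40 (-0.46 to -0.32 with 1 library left out) against 0.01 for all miRNAs. 0 passed the adjusted test, 5 had an unadjusted p under 0.05 on the lower side (3.42% of all miRNAs did), and for 4 the groups did not overlap on that side, against 2.78% of all. The list was chosen with earlier results of these data known. Its members, such as the strands of miR-142, are not independent, so these shares are a description and not a test. Their summed level ran from 6604 to 9877 CPM on forage against 5659 to 6401 CPM on grain, and none was at 0 in any of the 8 libraries. hsa-miR-155-5p (-0.21 ± 0.15) and miR-150 (-0.10 ± 0.24), of activated and of resting lymphocytes, were below 0 with overlapping groups. In RNA from whole papillae, fewer leukocytes and less of these miRNAs per cell cannot be told apart. The myeloid list did not show the same pattern: 3 of 5 members were above 0 (median 0.10, 0.04 to 0.17 with 1 library left out, and 0.44 with a filter of 10 CPM in 4 libraries). Its most typical member, miR-223, of neutrophils and monocytes, was at 373, 157, 335 and 196 CPM on forage against 374, 333, 338 and 564 CPM on grain, with FD_PHY 1 and FD_PHY 3 inside the range of the grain libraries (0.60 ± 0.30, adjusted p = 0.732 by edgeR). The summed myeloid level was 617 to 939 CPM on forage against 850.0 to 1158 CPM on grain.

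All 3 smooth muscle miRNAs were below 0, but 0 passed the adjusted test and miR-143 was the only one with an unadjusted p under 0.05. miR-143, which with miR-145 forms a cluster on chromosome 7 that keeps smooth muscle differentiated, was at 125146, 136721, 160422 and 130679.8 CPM in FD_PHY 1 to 4 and at 107640.0, 104378, 102211 and 98646 CPM in HG_PHY 1 to 4. The grain libraries were close to each other and all below the forage libraries (-0.42 ± 0.18, adjusted p = 0.647 by edgeR). miR-145 was at -0.39 ± 0.23 and hsa-miR-145-3p at -0.23 ± 0.23, both with overlapping groups. The summed level of the 3 was 129713 to 166703 CPM on forage against 103328 to 112512 CPM on grain, and the second-ranked miRNA of the papillae thus took 14.1% ± 1.87 of the reads on forage and 10.6% ± 0.934 on grain (SD, n = 4 each). Striated muscle miRNAs were scarcer: miR-133a was at -0.43 ± 0.27, miR-1 at -0.19 ± 0.23 and miR-499 at 0.01 ± 0.19, the last without a stable sign.

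Vessel and connective tissue miRNAs were mostly below 0. miR-126-3p, the main endothelial miRNA, was at 11812, 12737, 11426 and 10659 CPM on forage against 10514, 11019.7, 7915 and 9597 CPM on grain. HG_PHY 3 was far below the rest and HG_PHY 2 lay within the forage range (-0.26 ± 0.11). Its second strand miR-126-5p was at -0.22 ± 0.16. In the endothelial list 5 of 6 members were below 0 (median -0.24, and -0.12 without HG_PHY 3 or -0.15 without FD_PHY 3). miR-126-3p was its only member with an unadjusted p under 0.05, the scarce hsa-miR-139-3p was at -0.71 ± 0.61 and miR-503-5p was the member above 0. Of 12 fibroblast and mesenchymal miRNAs 11 were below 0 with a median of -0.14 (-0.24 to -0.06 with 1 library left out). miR-10b (-0.32 ± 0.19), miR-199a-5p (-0.21 ± 0.15), miR-152 (-0.19 ± 0.14) and miR-10a (-0.18 ± 0.18) had its lowest p-values, and 0 members had an unadjusted p under 0.05. The member above 0 was miR-199a-3p (0.13 ± 0.16), which was more abundant than miR-199a-5p. In the miR-29 family, which represses collagen genes, 7 of 9 entries were below 0 (median -0.09, or -0.25 without FD_PHY 1). Among the entries below 0, miR-29d-5p and hsa-miR-29c-5p had the same levels (28.7 CPM on forage, 27.5 CPM on grain). They hold nearly the same reads under different names, so the count and the median include those reads more than once. miR-29a was at 8351, 9438, 8149 and 7209 CPM and 6679, 5701, 6980.3 and 7892 CPM, with HG_PHY 4 inside the forage range (-0.28 ± 0.13). The scarcer miR-29d-3p was the member without overlap (-0.47 ± 0.26), and miR-29b (-0.25 ± 0.15) and hsa-miR-29a-5p (-0.27 ± 0.31) overlapped.

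miR-30c (chromosome 3) was at 2553, 2489, 2603 and 2768 CPM on forage against 1720.0, 1895, 2470.1 and 1774 CPM on grain, where HG_PHY 3 was near the forage level and the other grain libraries well below (-0.41 ± 0.17, adjusted p = 0.647 by edgeR). Of 8 members of the miR-30 family, which is broadly expressed in epithelia, 5 were below 0 (median -0.12, and -0.27 without HG_PHY 3 or -0.07 without FD_PHY 3, HG_PHY 2 or HG_PHY 4). miR-30b-5p also had groups that did not overlap (-0.26 ± 0.19), miR-30d was at -0.17 ± 0.12, and the scarce miR-30b-3p at 0.51 ± 0.31. miR-2478 (chromosome 9) had the largest difference on the lower side among miRNAs of at least 10 CPM with an unadjusted p under 0.05. It was at 486, 321, 191 and 169.5 CPM and 159.6, 110.1, 138 and 167 CPM. Its groups did not overlap, but FD_PHY 1 was far above FD_PHY 4, and FD_PHY 4 and HG_PHY 4 were close (-1.02 ± 0.43, from -1.22 to -0.66 with 1 library left out). miR-125a (-0.36 ± 0.18) and miR-125b (-0.37 ± 0.19), paralogs on different chromosomes that act on inflammatory and growth signals, had groups without overlap and did not reach an unadjusted p of 0.05. They stood in the inflammation list, where 10 of 14 members were below 0 (median -0.16, -0.25 to -0.09 with 1 library left out) and miR-147 was at 0.34 ± 0.18.

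Epithelial miRNAs were mostly above 0 by small amounts. All 5 members of the miR-200 family, which keeps cells epithelial by repressing ZEB factors, were above 0 with a median of 0.14 (0.04 to 0.26 with 1 library left out), and 0 had an unadjusted p under 0.05. miR-141 was at 4045, 4084, 4089.6 and 2513 CPM on forage against 5572, 4461, 6472 and 2956 CPM on grain, where replicate 4 of both groups was lowest (0.40 ± 0.24). miR-200a was at 0.21 ± 0.16, miR-200b at 0.14 ± 0.17 and miR-429 at 0.09 ± 0.14. Of 6 stratified epithelium and keratinocyte miRNAs 5 were above 0 (median 0.19, or 0.08 with a filter of 10 CPM in 4 libraries). miR-203, also on that list, had no entry among the miRNAs seen. miR-184, a miRNA of stratified epithelia such as the cornea, was scarce, with 3.95, 2.50, 1.90 and 1.91 CPM on forage against 5.03, 8.65, 5.15 and 16.6 CPM on grain. The groups did not overlap, and HG_PHY 4 was far above the rest (1.80 ± 0.55, adjusted p = 0.375 by edgeR, from 1.30 to 2.08 with 1 library left out). Those levels rest on 27, 24, 13, 20, 33, 75, 49 and 213 reads in the 8 libraries in the same order. miR-149-5p was at 0.27 ± 0.26 and miR-34c at 0.35 ± 0.41. The entry miR-24, which is the minor 5p strand, was at -0.23 ± 0.15, and the abundant miR-24-3p was at 0.11 ± 0.14. The abundant miR-205 had its grain libraries within the forage range or near it (0.04 ± 0.13).

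Markers of blood and of other tissues gave no common direction. The erythroid miR-486, miR-451 and miR-144 were at 0.15 ± 0.31, 0.05 ± 0.33 and 0.01 ± 0.36, with a summed level of 7299 to 12361 CPM on forage against 6415 to 16869.8 CPM on grain, and the sign of all 3 turned without HG_PHY 1. In that library the 3 were at their highest. Of 7 columnar gut miRNAs 5 were below 0 (median -0.04, -0.11 to 0.02 with 1 library left out), with miR-192 at -0.04 ± 0.12, hsa-miR-194-5p at -0.10 ± 0.12, the scarce miR-194b at 0.22 ± 0.56 and miR-215 at -0.10 ± 0.23. The neural list had 5 of 10 above 0 (median -0.04, or 0.21 without FD_PHY 1), with miR-129-5p and miR-128 above and miR-9-5p (-0.30 ± 0.27) and miR-9-3p (-0.26 ± 0.26) below. Of 40 members of the DLK1-DIO3 cluster, an imprinted region on chromosome 21, 25 were below 0 (median -0.08, but 0.03 without FD_PHY 4, 0.11 without HG_PHY 3 and -0.25 without HG_PHY 4) and 0 had an unadjusted p under 0.05. Its lowest p-values belonged to miR-432 (0.64 ± 0.39), miR-299 (-0.83 ± 0.60), miR-654 (-0.62 ± 0.56) and miR-411a (-0.36 ± 0.33).

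Lists for growth and metabolism were mixed. Of 17 tested let-7 miRNAs 13 were above 0 (median 0.14, 0.07 to 0.24 with 1 library left out), among them let-7i (0.28 ± 0.14) and let-7e (0.39 ± 0.22), but these members share reads and are uncertain one by one. Among miRNAs linked to lipid and energy metabolism 11 of 15 were above 0 (median 0.06, and 0.16 without FD_PHY 2 or 0.17 without HG_PHY 3 or HG_PHY 4), with miR-27b at 0.16 ± 0.11, miR-378b at 0.34 ± 0.24 and miR-33b, at a mean of 0.984 CPM, at 1.27 ± 0.72. Among miRNAs tied to hypoxia or p53, 3 of 6 were above 0 (median 0.11, or 0 with a filter of 10 CPM in 4 libraries). miR-34a, a p53 target, had groups without overlap (0.23 ± 0.17), and the hypoxia-induced miR-210 was at 192, 206, 285 and 321 CPM on forage against 392, 264, 368 and 269 CPM on grain, with overlap (0.37 ± 0.21). The miR-193 and miR-365 list had 3 of 6 above 0, namely miR-193a-5p (0.29 ± 0.14), miR-193a-3p (0.35 ± 0.20) and hsa-miR-193b-5p (0.51 ± 0.41), beside miR-193b at -0.09 ± 0.18. In the cell-cycle list 5 of 13 were above 0 (median -0.05, but 0.02 without FD_PHY 1 or HG_PHY 3), with miR-221 at 0.33 ± 0.19 and miR-195 at -0.27 ± 0.16. In the sensory miR-183 cluster, miR-96 was at -0.09 ± 0.18, miR-183 at 0.20 ± 0.16 and miR-182 at 0.10 ± 0.14. The list members share hairpins, clusters or reads, so their counts are not counts of independent miRNAs.

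**Figure D3:**
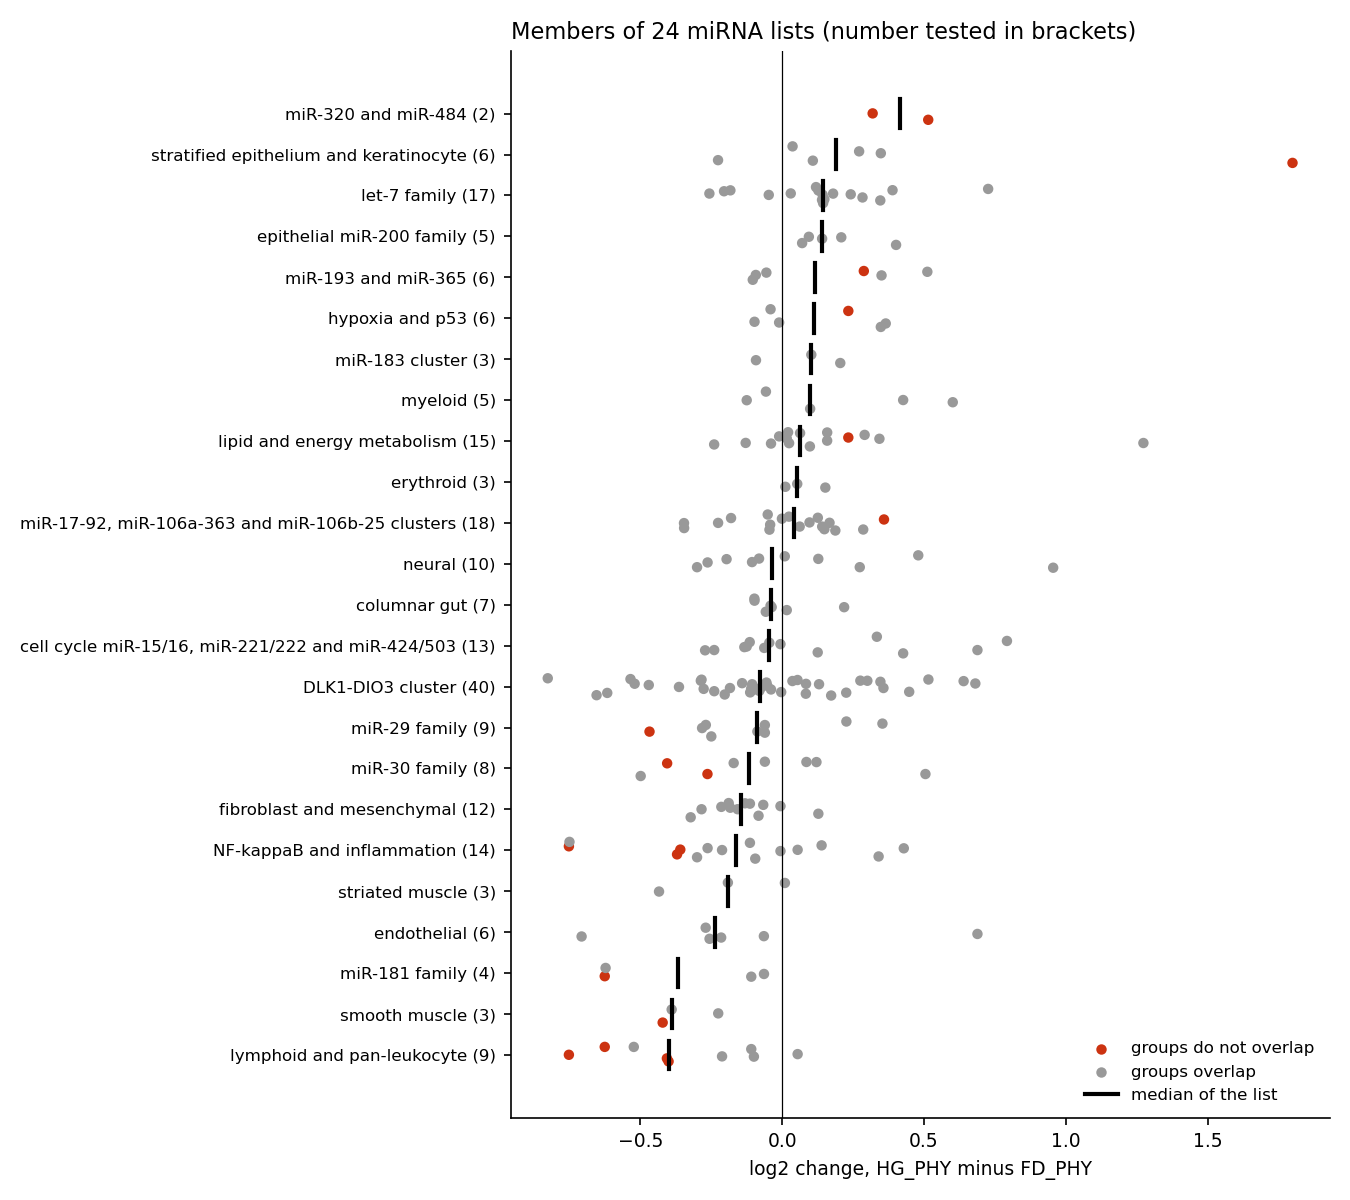
Log2 change from FD_PHY to HG_PHY of the tested members of 24 miRNA lists, 1 dot per miRNA (red where the groups do not overlap) with the median of each list as a bar. The lymphoid and pan-leukocyte list has the lowest median (-0.40) and 4 red dots, and most other lists straddle 0.

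Several miRNAs outside the lists stood apart in these libraries, and they were picked out after their values were seen. Of the 33 with an unadjusted p under 0.05, 7 lay under 10 CPM. Beside miR-184 these were hsa-miR-374c-5p (0.72 ± 0.31) on the higher side and miR-7858 (-0.81 ± 0.33), miR-2431-5p (-0.996 ± 0.40), miR-10172-5p (-1.33 ± 0.56), miR-2320-5p (-1.54 ± 0.66) and miR-10164-3p (-2.32 ± 1.05) on the lower side. Groups without overlap and an unadjusted p of 0.05 or more were found for 11 miRNAs. They included miR-2284x, a ruminant miRNA at 538, 617, 587 and 623 CPM on forage against 678, 820.4, 643 and 634 CPM on grain (0.23 ± 0.12), hsa-miR-324-3p (0.29 ± 0.21), miR-188 (0.28 ± 0.25), miR-6529a (0.34 ± 0.20) and miR-6523a (0.47 ± 0.33).

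The position of the hairpins gave a further description. For 41 hairpins both strands were tested and listed at the same hairpin name and no other, and for 21 of these both had the same sign. Strands listed at several hairpins or under different hairpin names were left out, such as those of miR-139, miR-145 and let-7i. The counts therefore do not cover all hairpins with both strands tested. With both strands at 10 CPM or more the count was 13 of 21. miR-142, miR-126 and miR-193a were among the hairpins whose strands shared a sign and a similar size, and miR-30b was one whose strands differed in sign. Of 30 groups of at least 3 tested miRNAs within 10000 bases of the next, 4 had all members on 1 side of 0, 1 on the lower side (miR-145, both strands, with miR-143) and 3 on the higher side. Those were miR-200a with miR-200b and miR-429, the scarce miR-302a to miR-302d (0.15 to 0.42), and miR-98 with let-7f (0.18 ± 0.17) and hsa-let-7f-2-3p (0.03). The group on chromosome 18 that holds miR-99b, let-7e and miR-125a was split, with let-7e at 0.39 and miR-125a at -0.36.

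The control cows went through the same change of diet and share no library with the PHY arm. Over all 468 miRNAs the log2 changes of the 2 arms had the same sign for 287 (61.3%), with Pearson's r of 0.22 and Spearman's rho of 0.27 across miRNAs, which are not independent of each other. Of the 33 miRNAs at an unadjusted p under 0.05 in the PHY arm, 26 had the same sign in control cows and 5 also had an unadjusted p under 0.05 there (10.7% of all miRNAs did). In control cows edgeR called 0 miRNAs (0%), with 50 at an unadjusted p under 0.05, and the groups did not overlap for 5 (1.07%), of which miR-143 was the only one without overlap on the same side in the PHY arm. miR-320a was at 0.34 ± 0.12 in control cows, beside 0.51 in the PHY arm, miR-143 at -0.61 ± 0.17 beside -0.42, miR-30c at -0.36 ± 0.15 beside -0.41, and miR-671 at 0.78 ± 0.29 beside 0.79. Of the 9 lymphoid and pan-leukocyte miRNAs, 7 were below 0 in control cows, with a median of -0.13 beside -0.40 in the PHY arm. In control cows miR-146a was at -0.31 ± 0.18, miR-181a at -0.13 ± 0.17, miR-342 at -0.17 ± 0.13, miR-142-3p at -0.02 ± 0.18 and miR-142-5p at 0.10 ± 0.14. The other members were at -0.19 ± 0.14 (hsa-miR-155-5p), -0.06 ± 0.14 (miR-181b), 0.25 ± 0.21 (miR-150) and -0.16 ± 0.18 (miR-146b), of which miR-150 and miR-146b had the opposite sign to the PHY arm.

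The test of the difference between the arms called 0 of 468 miRNAs (0%), with 10 at an unadjusted p under 0.05 (2.14%). The 10 became 6 without FD_PHY 2, 25 without FD_PHY 4, 17 without HG_PHY 1, 20 without FD_CON 2, 16 without FD_CON 5 and 22 without HG_CON 5. The lowest p of all was that of the scarce miR-2320-5p, at -1.54 in the PHY arm and 1.66 in control cows (adjusted p = 0.849 by edgeR). Among miRNAs of at least 10 CPM the lowest p belonged to miR-193a-5p, at 216, 186, 230.2 and 250.0 CPM on forage against 276, 263, 281 and 257 CPM on grain in the PHY arm, where the groups did not overlap. In control cows it was at 234 ± 19.8 CPM on forage against 187 ± 32.1 CPM on grain (SD, n = 5 each). Its change was 0.29 ± 0.14 in the PHY arm and -0.33 ± 0.13 in control cows, a difference of 0.61 ± 0.19 (adjusted p = 0.914 by edgeR). miR-22-5p followed, with -0.21 ± 0.13 in control cows and a difference of 0.58 ± 0.20 (adjusted p = 0.997 by edgeR). miR-142-5p (0.10 ± 0.14 in control cows, difference -0.50 ± 0.21), miR-181c (-0.02 ± 0.17, difference -0.60 ± 0.26) and miR-222 (0.13 ± 0.18 in the PHY arm, -0.42 ± 0.16 in control cows, difference 0.54 ± 0.24) completed the 5 lowest p-values at that level, each with an adjusted p of 0.997 by edgeR. For miR-146a the difference between arms was -0.44 ± 0.27, for miR-320a 0.18 ± 0.18 and for miR-143 0.19 ± 0.25. The let-7 family, with 13 of 17 members above 0 in the PHY arm, had 4 of 17 above 0 in control cows (medians 0.14 and -0.20); let-7g differed between arms by 0.35 ± 0.15 and let-7e by 0.63 ± 0.29, each with an adjusted p of 0.997 by edgeR. No diet difference was therefore shown to be particular to the cows given PHY.

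**Figure D4:**
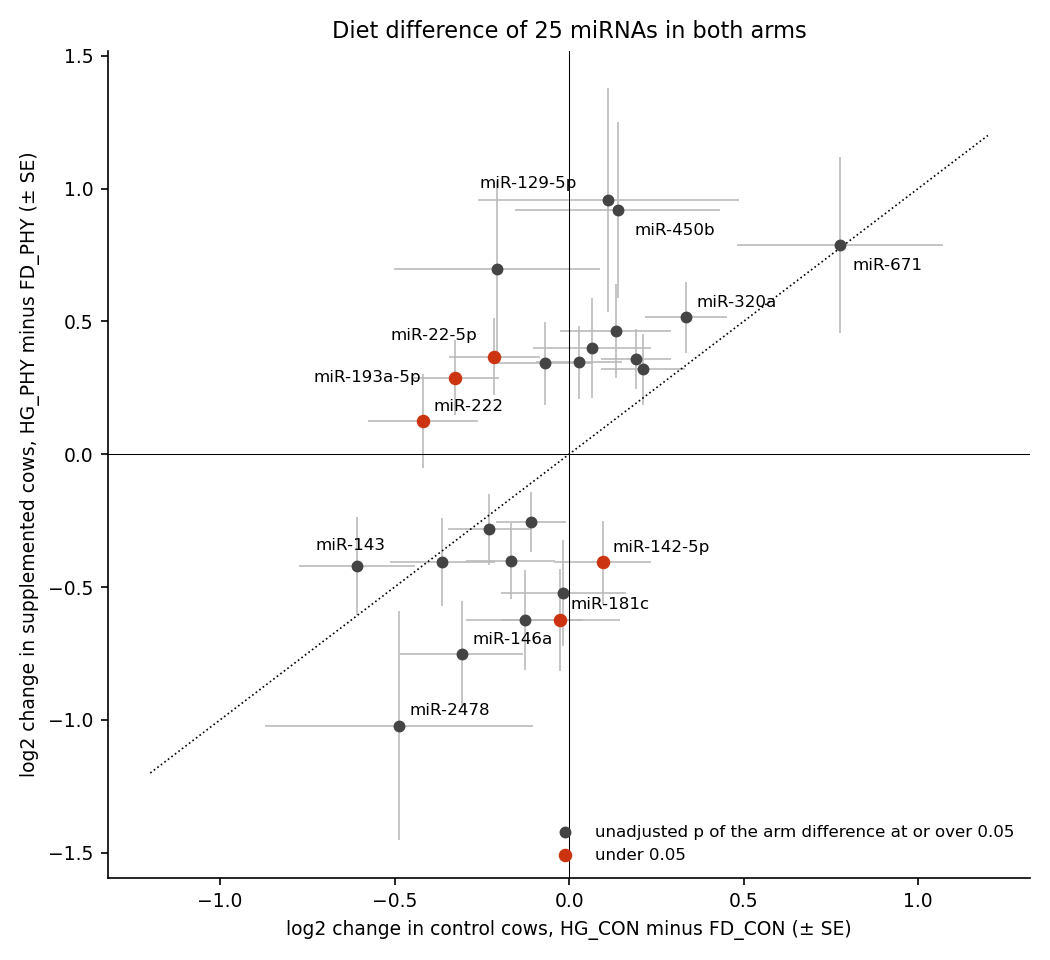
Log2 change from forage to grain in supplemented cows (vertical axis) against control cows (horizontal axis), both ± SE, for the 25 miRNAs named for the size of their difference in the PHY arm or for a low p of the arm difference; the dotted line marks equal changes. The 5 red points have an unadjusted p under 0.05 for the difference between arms, and miR-320a, miR-671, miR-143 and miR-30c lie near the line.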

How the data were processed

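Per the labels' protocols, a NucleoSpin miRNA kit gave the RNA of the papillae and a NETflex Small RNA-Seq kit the libraries. bcl2fastq 2.20 and DESeq2 are named, without a role, per the submitters' processing notes; for aligner, counting program and build: not given in the sources used here. Therefore no coordinates are printed, and distances between hairpins use the deposited positions as they are. The library files deposited by the authors give raw read counts per miRNA name, in which a read counts under every name it fits, and expected counts divided over names and loci. A deposited table of 673 names holds a normalized signal, and 100% of its values became whole reads (within 0.01 reads) with 1 size factor per library. The 966 names were merged into 824 miRNAs, 141 with several names, where positions overlapped by 15 nt or bovine and human totals of the same miRNA agreed within 5%, and the name with the highest total was used. Raw counts were tested with edgeR 4.0.16 (R 4.3.3): filterByExpr, TMM, a mean for each of 4 groups over all 18 libraries, glmQLFit and glmQLFTest, Benjamini-Hochberg adjustment, threshold 0.05, two-sided. Names were chosen by rule: at least 10 CPM and an unadjusted p under 0.05 for the 12 largest differences per side (11 were lower), the 5 lowest p-values of the arm difference, the 10 most abundant, and up to 4 per list by lowest p. The members, lists and rules were chosen with earlier results of these data known. Alternatives with DESeq2 1.42.0, limma 3.58.1, other scalings and filters, blocks and left-out libraries are given in the closing section. The test was checked on simulated libraries that were independent of each other. The changes planted in them were larger than most of those reported here, so the check does not show the power for small changes. Replicate libraries differed far beyond counting noise (chi-square per degree of freedom of at least 110.6), so none was a copy. Mature sequences were not used here.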

Additional observations from a re-analysis of the deposited data

Results flagged for a closer look

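In groups of 4 libraries, a library was marked when its gap to the nearest other library took most of the group's range (Dixon's criterion at 95%). Chance marks about 1 in 20 groups, and 17 of 200 groups of named miRNAs (8.5%) were marked. On forage, FD_PHY 3 was low for miR-450b (23.9 CPM, next 48.6), miR-450a (9.34 CPM, next 21.3), let-7i (6338 CPM, next 7518) and miR-21-5p (212182 CPM, next 241064) and high for miR-215 (90.0 CPM, next 53.7). FD_PHY 4 was high for miR-320a (3041 CPM, next 2343), let-7g (24182 CPM, next 19098) and let-7e (1089 CPM, next 715), and low for miR-141 (2513 CPM, next 4045). On grain, HG_PHY 1 was low for hsa-miR-93-5p (3662 CPM, next 4476) and miR-181a (563 CPM, next 782) and high for miR-2284y (31.3 CPM, next 28.7). HG_PHY 2 was high for miR-450b (123 CPM, next 71.9) and miR-181d (16.6 CPM, next 10.1). HG_PHY 4 was low for miR-142-5p (1709 CPM, next 1908), miR-106b (1700.0 CPM, next 2013) and miR-147 (215 CPM, next 317). With any 1 library left out, marked or not, the log2 change ran from 0.64 to 1.01 for miR-450b, from 0.44 to 0.62 for miR-320a and from -0.76 to -0.52 for miR-181a.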

How the results depend on the processing

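In 33 alternatives the number called in PHY cows stayed at 0 except for 1 (miR-320a) with quality-weighted limma-voom and 1 in the 8 PHY libraries with the replicate number as a block (miR-146a, adjusted p = 0.00997). The number at an unadjusted p under 0.05 was 55 with limma-voom and ran from 18 to 43 with 1 library left out. Groups without overlap numbered 17 with the filter of 10 CPM in 4 libraries. For the difference between arms, 0 were called throughout, and the number at an unadjusted p under 0.05 was 28 with the replicate block, 29 with limma-voom, 17 with total counts only, 40 with no filter, 16 with limma-trend on the deposited table and 6 to 25 with 1 library left out. Whether the numbers pair libraries of 1 cow is not stated, and same-numbered PHY libraries deviated together only weakly (correlations of 0.04, -0.02, 0.07 and 0.19), so the block is given here only; with all 18 libraries it called 0 of the PHY effects. Signs of miRNAs near 0 turned: miR-144 was at -0.02 in both blocked fits, -0.12 with limma-voom and -0.04 with limma-trend, miR-451 at -0.08 with limma-voom, and miR-499 at -0.03 with upper-quartile scaling and -0.01 with no filter and with limma-trend. With 1 library left out, the log2 change ran from -0.12 to 0.09 for miR-499, -0.29 to 0.23 for miR-451, -0.35 to 0.23 for miR-144, -0.19 to 0.33 for miR-486, -0.33 to 0.13 for miR-181d, -0.25 to 0.15 for miR-215, -0.22 to 0.01 for miR-193b, -0.06 to 0.56 for miR-194b, -0.01 to 0.31 for miR-200b and -0.40 to 0.06 for miR-424-3p. The cause was not tested. Robust estimation, chosen after seeing the data, gave an adjusted p of 0.230 for miR-320a and miR-146a. Under 10 CPM the median SE was 0.58 on the log2 scale, so a difference of that size would not exceed its SE for a typical miRNA at that level. Whether more reads would lower the SE was not tested.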
